A study of Mus musculus with 3 samples.

Results

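Cxcl1, Cxcl2, Ccl3 and Ccl4 are 4 chemokine genes of the 30406 genes that the libraries share, described here in macrophages of the mouse heart. They were listed by symbol and selected on measured values of these libraries: their UMIs per library in macrophages split by Ccr2 and Lyve1 and in other cells, the share of UMIs in the top 10% of cells and their presence in the same cells. A UMI, or unique molecular identifier, tags 1 captured transcript. Values of these kinds are therefore given as a description, with no test.

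Chemokines are small secreted proteins that attract leukocytes along a gradient. The products of Cxcl1 and Cxcl2 bind the receptor CXCR2 and draw neutrophils. Those of Ccl3 and Ccl4, the macrophage inflammatory proteins 1-alpha and 1-beta, draw monocytes, macrophages and lymphocytes, and that of Ccl3 binds CCR1. In macrophages all of them are known as fast targets of Toll-like receptor and NF-kB signalling, and tissue digestion is known to induce them in isolated cells.

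Wild type mice aged 32 to 34 weeks were fed a diet named control (CD), high fat (HFD) or Western (WD), and each diet gave 1 library. Hearts were flushed, minced and digested with collagenase for 30 minutes at 37 degrees, and live cells positive for CD45, F4/80 and CD11b were sorted and captured in droplets. The sources used here do not say how many mice a library holds, what the diets contained or how long they lasted. A ratio between diets is thus a ratio between 2 libraries, with no replicate check, and its 95% interval covers counting error only.

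A barcode counted as a cell with 1000 or more UMIs, 200 or more genes and no more than 10% of UMIs from the mitochondrial genome, which kept 2679 in CD, 2717 in HFD and 4775 in WD. Cells with at least 0.3% of their UMIs from C1qa, C1qb and C1qc, complement genes that mark tissue macrophages, are called C1q cells. They numbered 2293 in CD, 2002 in HFD and 3717 in WD. All 12 listed macrophage markers had a UMI in the sum of these cells in every library. This does not show that the cells are macrophages, since all 10 listed neutrophil markers also had a UMI there in CD and WD. The WD library stood apart. It held 79269380 UMIs against 17464149 in CD and 16630481 in HFD, and its C1q cells had a median of 12242 UMIs against 4319 and 2953.5. Its files came from software version 7.2.0 rather than 3.0.1, and the mitochondrial limit removed 26.1% of its barcodes against 6.33% and 11.9%. Only 92 of the 6885 WD barcodes are on the list that the CD and HFD files carry, although the labels name the same kit chemistry for all libraries. CD and HFD had 15 cell barcodes in common, CD and WD 1, and HFD and WD 0. Diet and these differences cannot be told apart for WD, so each result is given library by library.

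The genes lie in pairs on the GRCm38 genome. Cxcl1 (ENSMUSG00000029380, chr5:90891241-90893115) and Cxcl2 (ENSMUSG00000058427, chr5:90903871-90905938) are read from the plus strand, 10755 bases apart. On chromosome 11, Ccl3 (ENSMUSG00000000982, chr11:83647844-83649355) is read from the minus strand and Ccl4 (ENSMUSG00000018930, chr11:83662584-83664683) from the plus strand. The 2 lie 13228 bases apart and are read away from each other. No other annotated gene overlaps any of them. They are short. Transcripts of Cxcl1 and Cxcl2 have up to 4 exons, but the exons of all annotated transcripts together cover every base of both genes. Counted in this way, introns take 746 bases of Ccl3 and 1440 of Ccl4, against a median of 13536 over 21897 protein-coding genes. Of the 31-base words in Cxcl2, 7.59% also occur in the related gene Cxcl3, so some Cxcl2 reads could be shared with that gene, and none of the words in the other members occur elsewhere among annotated transcripts.

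Promoter sequences are shown because Cxcl1 and Cxcl2, which sit side by side, share stretches in front of their starts. RefSeq's promoter table for GRCm38.p6 matched 3 of the 4 genes, all but Ccl4. The windows run from 150 to 29 bases before the RefSeq start, 5′ to 3′ in the direction of the gene. They lie at chr5:90891095-90891216 on the plus strand for Cxcl1, at chr5:90903749-90903870 on the plus strand for Cxcl2 and at chr11:83649407-83649528 on the minus strand for Ccl3. Capitals mark GGGAATTTCC, a form of the NF-kB site, and CATAAAA, which resembles a TATA box.
Cxcl1: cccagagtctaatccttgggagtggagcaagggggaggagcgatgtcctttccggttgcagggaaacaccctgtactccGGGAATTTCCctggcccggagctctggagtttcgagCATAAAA
Cxcl2: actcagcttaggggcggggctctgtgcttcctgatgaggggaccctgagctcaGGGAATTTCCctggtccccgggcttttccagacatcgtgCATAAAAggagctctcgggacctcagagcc
Ccl3: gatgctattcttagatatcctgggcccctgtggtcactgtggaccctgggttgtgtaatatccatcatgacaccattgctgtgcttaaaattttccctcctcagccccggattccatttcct

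The longest stretch that the Cxcl1 and Cxcl2 windows have in common is GGGAATTTCCCTGG, which begins with the NF-kB site, at position -71 in Cxcl1 and -97 in Cxcl2 counted from the start. CATAAAA begins at -35 and -58. Searched on both strands, the whole stretch occurred in 2 of 32817 windows of the same length, those of Cxcl1 and Cxcl2. Searched on both strands, GGGAATTTCC, which is part of the stretch, occurred in 18 windows, or 0.0548%. CATAAAA, searched on the strand of the gene, occurred in 0.969% of windows. TGANTCA, a form of the AP-1 site, searched on both strands, occurred in 3.63% of windows and in none of the 3 members. None of these letters was found in the Ccl3 window. The motifs were picked after the promoters had been seen, and a match is a description of letters, not a measured binding site. Of the 18 genes with GGGAATTTCC, 10 had at least 50 UMIs over CD and HFD, and Cxcl1 and Cxcl2 were the 2 at least 2-fold lower in HFD, with a median log2 ratio of 0.12 for the 10. In WD against CD, 8 of 12, Cxcl1 and Cxcl2 among them, were at least 2-fold higher. Over all genes with enough UMIs, 2.71% were that much lower in HFD and 37.3% that much higher in WD. The letters were taken from Cxcl1 and Cxcl2, which were themselves chosen on these contrasts. Both genes thus enter the counts by selection, and no other of the 10 was at least 2-fold lower in HFD. Cxcl3, a further gene with the site, was under the minimum there, with 23 UMIs in CD and 0 in HFD. It was among the 8 higher in WD.

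In C1q cells every member was lowest in HFD and highest in WD. Levels are given in CPM, a gene's UMIs per 1000000 UMIs of the shared genes. Cxcl2, which attracts neutrophils through CXCR2, had 1217 CPM in CD (95% interval 1197 to 1238), 72.9 in HFD (66.5 to 79.7) and 3304 in WD (3289 to 3318). Ccl3 had 169 CPM in CD (162 to 177), 12.3 in HFD (9.75 to 15.3) and 534.5 in WD (529 to 540). Ccl4 had 276 CPM in CD (266 to 286), 46.2 in HFD (41.2 to 51.7) and 1161 in WD (1152 to 1170). The intervals cover counting error only. Cxcl1, the other CXCR2 ligand, had 18.2 CPM in CD (15.8 to 20.8), 0.758 in HFD (0.246 to 1.77) and 156 in WD (153 to 159). The HFD value of Cxcl1 rests on 5 UMIs.

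**Figure D1:**
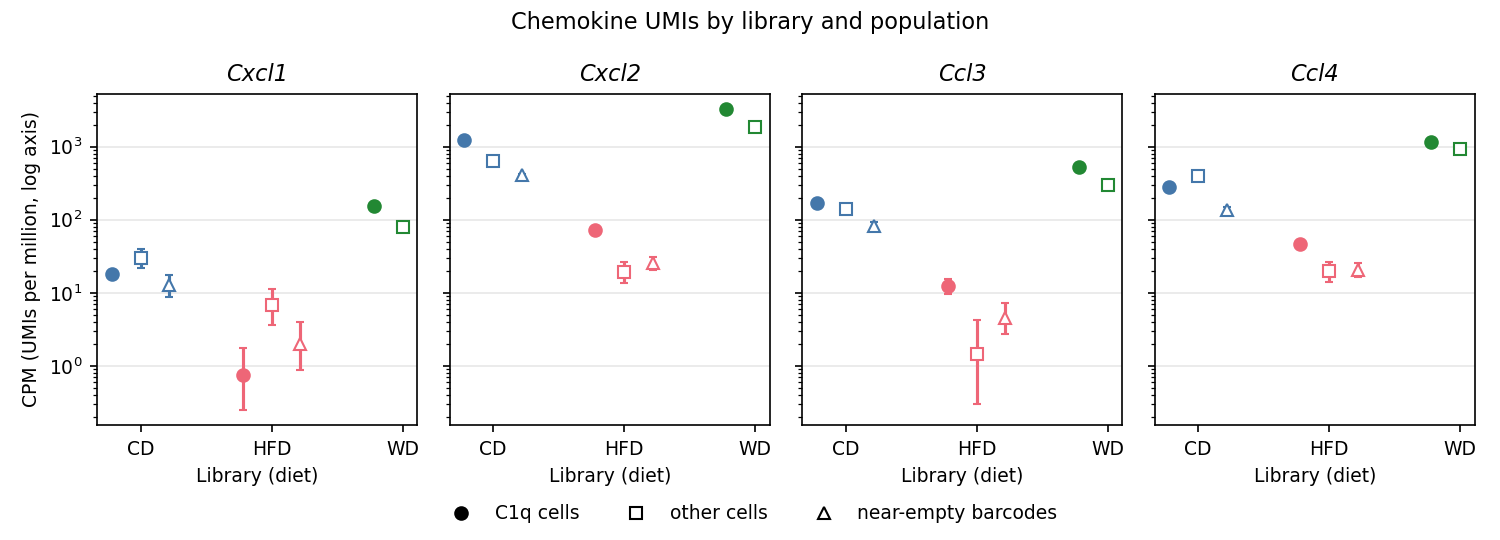
Levels of the 4 genes in CPM on a log axis in the CD, HFD and WD libraries, in C1q cells (filled circles), other kept cells (squares) and near-empty barcodes of 10 to 99 UMIs (triangles; CD and HFD only). Bars are 95% Poisson intervals, and in C1q cells each gene is lowest in HFD and highest in WD.

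The fold calls describe the contrasts from which the genes were chosen. Against CD, the HFD level was 24.0-fold lower for Cxcl1 (10.1 to 74.6), 16.7-fold for Cxcl2 (15.2 to 18.3), 13.8-fold for Ccl3 (11.02 to 17.4) and 5.97-fold for Ccl4 (5.31 to 6.74). All 4 passed the fold of 2, as did 2.71% of the 9890 genes with at least 50 UMIs over both libraries, while 0.971% of genes were at least 2-fold higher in HFD. Against CD, the WD level was 8.59-fold higher for Cxcl1 (7.48 to 9.90), 2.71-fold for Cxcl2 (2.67 to 2.76), 3.16-fold for Ccl3 (3.02 to 3.31) and 4.21-fold for Ccl4 (4.06 to 4.36). All 4 passed again, but so did 37.3% of 12913 genes, with 17.4% at least 2-fold lower, and the median gene stood at a log2 ratio of 0.40. In WD against HFD the folds ran from 25.1 for Ccl4 to 206 for Cxcl1, beside 38% of genes past the fold of 2 and 15.9% past it downward. These comparisons share libraries and are not separate evidence of each other.

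Cells are not equally deep, so shares of cells were taken after drawing 1000 UMIs from each cell. Cxcl2 was then found in 31.6% of C1q cells in CD, 2.80% in HFD and 60.3% in WD. Ccl3 was found in 11.7%, 1.10% and 26.7%, and Ccl4 in 14.2%, 2.40% and 35.5%. The order of the libraries was thus the same at equal depth. Cxcl1 was found in 0.959%, 0.0999% and 9.47%. Without thinning, the shares in CD, HFD and WD were 48.8%, 5.34% and 87.7% for Cxcl2, 27.9%, 2.90% and 65.9% for Ccl3, 27.7%, 5.59% and 69.2% for Ccl4, and 3.79% and 29.9% in CD and WD for Cxcl1, which 5 of 2002 cells had in HFD.

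Free RNA in the suspension sets a floor under such shares, and near-empty barcodes of 10 to 99 UMIs show what it holds. In CD these barcodes had 403 CPM of Cxcl2, 81.6 of Ccl3, 135 of Ccl4 and 12.6 of Cxcl1. In HFD they had 25.5, 4.55, 20.7 and 2.02 CPM. The drop from CD to HFD was therefore also present outside intact cells. Endothelial-marked cells, which line vessels and are not known as a main source of Ccl3 and Ccl4, gave the comparison within cells (median 2628 UMIs in CD and 1779.5 in HFD). In CD, at 1000 UMIs, 2.51% of 199 such cells had Cxcl2, 0.503% had Ccl3 and 1.01% had Ccl4, all far under the C1q cells. In HFD the share of 492 such cells was 0.610% for Cxcl2 (95% interval 0.126 to 1.77), under the 2.80% in C1q cells (2.12 to 3.62). Ccl3 and Ccl4 were each found in 0 of 492 cells, which at 3 counts of the total allows a share of up to 0.610%. For Cxcl1, C1q cells did not exceed endothelial-marked cells in CD (0.959% against 1.01%) or in HFD (0.0999% against 0.610%), but endothelial cells can make Cxcl1 and give no background for it. In CD its level in C1q cells was 18.2 CPM against 12.6 in near-empty barcodes (8.89 to 17.4), and 1 C1q cell held 33 UMIs. In HFD the level was 0.758 CPM (0.246 to 1.77) on 5 UMIs, no higher than the 2.02 in near-empty barcodes (0.873 to 3.98). How much of the Cxcl1 in C1q cells of CD and HFD is free RNA was not tested.

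The rest of each library was sorted by marker lists, a mark being at least 3 markers of a list found and at least 0.5% of a cell's UMIs. Of the UMIs in kept cells, C1q cells held 93.0% of Cxcl2 in CD, 92.3% in HFD and 90.2% in WD. For Ccl4 they held 82.8%, 88.2% and 86.3%. C1q cells were 85.6% of kept cells in CD, 73.7% in HFD and 77.8% in WD. Only of Cxcl1 in HFD did C1q cells hold the smaller part, 5 of 19 UMIs, and endothelial-marked cells held the other 14. Per UMI, other cells of CD had more Ccl4 than C1q cells (397 against 276 CPM) and more Cxcl1 (29.8 against 18.2). Of the 653 Ccl4 UMIs in other cells of CD, 1 cell held 177. Cxcl1 in HFD was also higher in other cells. In the remaining member and library pairs C1q cells had the higher level. Fibroblast-marked cells had the highest Cxcl1 level of the populations examined, 179 CPM in CD (121 to 255, 44 cells) and 269 CPM in WD (227 to 316, 36 cells). There, 20.5% and 19.4% of cells had Cxcl1 at 1000 UMIs, and in HFD 13 such cells held none. They held 1 UMI of Cxcl2 and 2 of Ccl3 in CD, but 89 and 28 in WD (161 and 50.5 CPM). In CD, 115 other cells without a mark had 635 CPM of Ccl4 (581 to 694) against 276 in C1q cells. This level leans on 1 cell, which held 177 of their 496 UMIs.

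Leukocytes outside the macrophages were numerous enough to compare only in WD. Neutrophil-marked cells (91 cells) had the highest Cxcl2 level, 6125 CPM (5931 to 6324) against 3304 in C1q cells, with a thinned share of 80.2%. NK-marked cells (146 cells), cytotoxic lymphocytes, had the highest Ccl4 level, 1514 CPM (1440 to 1591) against 1161, but 318 CPM of Cxcl2 and 20.4 of Cxcl1. Monocyte-marked cells (40 cells) had 1047 CPM of Ccl4, 745 of Cxcl2 and 243 of Ccl3. Ccl3 was highest in C1q cells, at 534.5 CPM against 437 in NK-marked cells and 309 in neutrophil-marked cells. B-marked cells (20 cells) had 847 CPM of Cxcl2, but 1 cell held 143 of the 158 UMIs. How much free RNA the WD cells carry was not tested, as that library lists no near-empty barcodes.

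**Figure D2:**
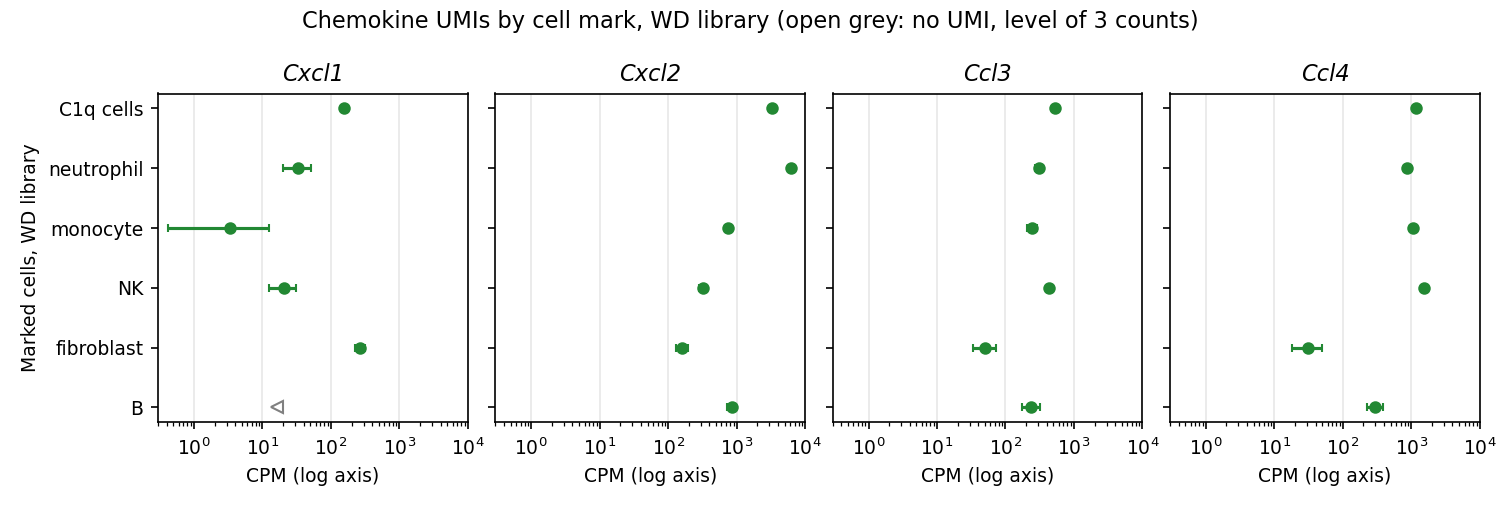
Levels of the 4 genes in CPM on a log axis in C1q cells and marked other cells of the WD library, with 95% Poisson intervals; the open grey triangle marks a population with no UMI at the level of 3 counts. Cxcl1 is highest in fibroblast-marked cells, Cxcl2 in neutrophil-marked cells, Ccl3 in C1q cells and Ccl4 in NK-marked cells.

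Neutrophil markers also moved with the members inside the C1q cells. All 10 were found in CD and WD, and 8 of 10 in HFD, where Mmp8 and Ly6g were at 0. Summed, they reached 875 (CD), 194 (HFD) and 1338 CPM (WD), the order of the chemokines. The monocyte list, 8 of 8 genes found in each library, summed to 216, 17.6 and 163 CPM. C1q cells with a neutrophil mark, 94 in CD and 163 in WD, had 2416 and 4151 CPM of Cxcl2, and in WD they were deeper than other C1q cells, with a median of 22492 UMIs. Without every C1q cell carrying another mark, Cxcl2 had 1152, 68.3 and 3250 CPM in CD, HFD and WD, Ccl3 160, 12.5 and 537, and Ccl4 255, 47.6 and 1172. HFD was then 16.9-fold lower than CD for Cxcl2, 12.8-fold for Ccl3 and 5.35-fold for Ccl4. WD was 2.82-fold, 3.35-fold and 4.60-fold higher than CD. Against the values with all C1q cells, the HFD folds of Ccl3 and Ccl4 were smaller and the others larger.

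The threshold of 0.3% C1q cut through a dense range in WD, where 1236 cells had a C1q share between 0.15% and 0.6%, against 74 in CD and 81 in HFD. In WD, Cxcl2 stood at 4226 CPM just inside the threshold (0.3% to 0.6%) and at 3381 just outside it (0.15% to 0.3%). Ccl3 had 635 and 478 CPM there, Ccl4 1490 and 1264, and Cxcl1 177 and 161. Cells on both sides of the line carried the chemokines in WD. In CD, Cxcl2 had 1930 CPM inside and 1442 outside, Ccl4 464 and 263, Ccl3 185 and 47.2, and Cxcl1 34.2 and 80.8, the last on 12 UMIs of which 1 cell held 11. In HFD, Cxcl2 had 0 UMIs in the 35 cells inside and 326 CPM in the 46 cells outside, and Ccl4 had 17.9 and 207 CPM. Ccl3 had 0 UMIs inside and 2 outside, and Cxcl1 had none in either. Outside the HFD threshold each of Cxcl2 (33 UMIs) and Ccl4 (21 UMIs) was found in 1 cell only.

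Cardiac macrophages are commonly divided by Ccr2, the receptor that brings monocytes in from blood, and Lyve1, a marker of resident cells around vessels. Cells with a Ccr2 UMI and no Lyve1 UMI numbered 440 in CD, 346 in HFD and 293 in WD, and those with Lyve1 only 932, 697 and 2211. In CD, Cxcl2 had 1806 CPM in Ccr2 cells and 830 in Lyve1 cells, 2.18-fold higher in the former (2.08 to 2.27). Ccl4 was 1.70-fold higher there (1.54 to 1.87, 337 against 199 CPM) and Ccl3 1.37-fold (1.20 to 1.55, 180 against 132 CPM). Cxcl1 had 12.4 and 16.4 CPM, with an interval of the ratio that spans equality (0.474 to 1.17). In CD, Cxcl2 alone passed the fold of 2, beside 3.49% of genes, and none passed it toward Lyve1 cells, as 6.07% of genes did. That call rested on few cells: without the 1% of cells with the most Cxcl2 the fold was 1.75.

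In HFD the CD pattern did not recur. Cxcl2 had 36.3 CPM in Ccr2 cells and 54.4 in Lyve1 cells, a ratio of 0.668 (0.474 to 0.929) on 51 and 135 UMIs. Ccl4 had 40.6 and 40.3 CPM, a ratio of 1.01 (0.715 to 1.41). Ccl3, with 5 and 28 UMIs, and Cxcl1, with 0 and 5, were under the minimum of 50. No member passed the fold of 2, beside 2.66% of genes higher in Ccr2 cells and 8.42% higher in Lyve1 cells. Cxcl2 did pass it toward Lyve1 cells, on few UMIs, at 6.77-fold (3.14 to 17.4, 7 and 79 UMIs) when Ccr2 and Lyve1 were called after thinning and at 4.27-fold (2.03 to 10.3, 8 and 60 UMIs) without the richest 1% of cells. In WD, Cxcl2 had 2871 CPM in Ccr2 cells and 3114 in Lyve1 cells, a ratio of 0.922 (0.905 to 0.939). Ccl3 had 534 and 499 CPM (1.07-fold, 1.02 to 1.12) and Cxcl1 124 and 154 CPM (0.807-fold, 0.738 to 0.882). Ccl4 was 1.51-fold higher in Ccr2 cells (1.47 to 1.55, 1517 against 1003 CPM). None reached 2-fold, beside 4.9% of genes higher in Ccr2 and 7.42% in Lyve1 cells. The difference between libraries in this split was not tested.

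Cells in which neither gene was found had the highest level of every member in WD, with 3952 CPM of Cxcl2, 838 of Ccl3 and 1938 of Ccl4, and in HFD Cxcl2 had 116 CPM there. In CD they had 1393 CPM of Cxcl2, between the Ccr2 and the Lyve1 cells. These cells were the shallowest, with a median of 3247 UMIs in CD, 2386 in HFD and 8981 in WD, so depth moved with the split, and its part was not tested. Within Lyve1 cells alone the diets kept their order: HFD was 15.3-fold lower than CD for Cxcl2 (12.8 to 18.2) and WD 3.75-fold higher. The immediate early genes, transcription factors and heat shock genes known to rise within minutes of stimulation or tissue digestion, summed in CD to 11528 CPM in Ccr2 cells and 10563 in Lyve1 cells. In HFD the 2 sums were 3612 and 6246 CPM, and in WD 21477 and 31403. Between these 2 groups the Cxcl2 level was higher on the side with the higher sum in each library. Cells with neither gene did not follow, with sums of 12121.5 (CD), 5499 (HFD) and 29029 CPM (WD). In CD they had the highest sum but less Cxcl2 than Ccr2 cells. In HFD and WD they had the most Cxcl2 but a lower sum than Lyve1 cells. The part of the immediate early genes in the split was not tested.

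**Figure D3:**
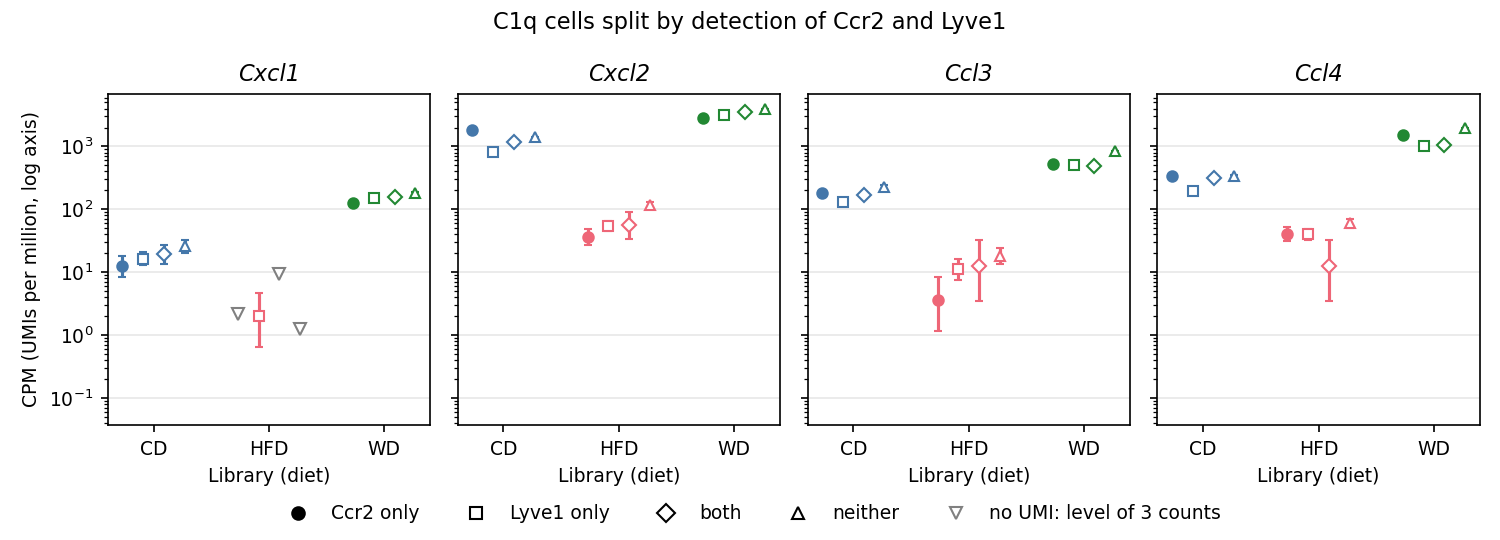
Levels of the 4 genes in CPM on a log axis in C1q cells with a Ccr2 UMI only (filled circles), Lyve1 only (squares), both (diamonds) or neither (triangles), with 95% Poisson intervals; inverted grey triangles mark populations with no UMI at the level of 3 counts. Cxcl2 is higher in Ccr2 than in Lyve1 cells in CD (1806 against 830 CPM) but not in HFD or WD.

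A small share of cells held much of each member's UMIs, as was so for most genes. In CD the 230 C1q cells with the most Cxcl2, 10% of all, held 67.9% of its UMIs, and 122 cells (5.32%) held 50%. For Ccl3 the top 10% held 71.1% and for Ccl4 78.7%, with 50% in 114 and 83 cells. Among the genes found in at least 10% of cells in CD, the median was 56.3%, and Cxcl2 ranked 1464 of 4518. In WD the top 10% held 46.8% of Cxcl2, 56.2% of Ccl3, 58.6% of Ccl4 and 80.1% of Cxcl1. The median in WD was 52.5% over genes found in at least 10% of cells. Over all genes with at least 50 UMIs it was 65.5%, above Cxcl2, Ccl3 and Ccl4. For Cxcl2, Ccl3 and Ccl4 this share was lower in WD than in CD, beside the higher level and depth of WD. In HFD, as for Cxcl1 in CD, under 10% of cells had the gene, so the top 10% held 100% by construction. There, 12 cells held 50% of Cxcl2, 18 of Ccl3 and 17 of Ccl4. The top 10% held at least 50% in 11 of 12 member and library pairs, beside 82.3% of genes in CD, 85.8% in HFD and 70.4% in WD, a share that most genes reached.

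A further measure sets the share of cells with a UMI against the share expected if UMIs were spread in proportion to cell depth. In CD, Cxcl2 was found in 48.8% of cells where an even spread gives 97.0%, a ratio of 0.503. The ratio was 0.538 for Ccl3 and 0.411 for Ccl4, while the median of the 4518 genes found in at least 10% of cells was 0.98. From the lowest ratio up, Ccl4 ranked 14, Cxcl2 18 and Ccl3 20 among those genes. In WD the ratio was 0.361 for Cxcl1 (0.447 in CD), 0.667 for Ccl3, 0.693 for Ccl4 and 0.877 for Cxcl2, against a median of 0.92 over 8389 genes. There Cxcl1 had the lowest ratio of the members. The ratio also moves with level, since in WD an even spread gives 99.99% of cells for Cxcl2 and 82.9% for Cxcl1. In HFD the ratio was lowest for Cxcl2, at 0.258, with 0.405 for Ccl4 and 0.735 for Ccl3. The richest single cell held 260 UMIs of Cxcl2 in CD, 72 in HFD and 718 in WD.

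**Figure D4:**
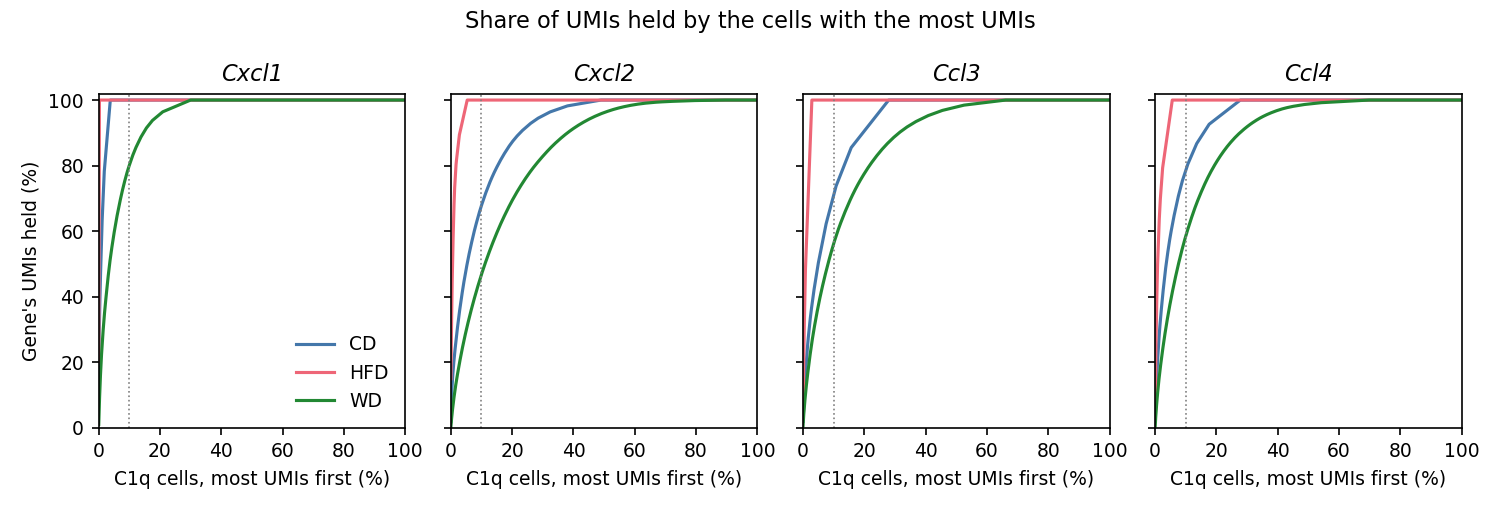
Share of each gene's UMIs (%) held by the C1q cells with the most of it, against the share of C1q cells (%), in the CD, HFD and WD libraries; the dotted line marks 10% of cells. The WD curves rise most slowly, and at the dotted line Cxcl2 stands at 67.9% in CD and 46.8% in WD.

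The members occurred together in cells more often than their single shares give. At 1000 UMIs per cell, 58.0% of C1q cells in CD, 94.4% in HFD and 25.8% in WD had no member. At least 2 members were found in 13.1%, 0.749% and 40.3%, and all 4 in 3 cells of CD, 0 of HFD and 87 of WD. In CD, the neighbours Ccl3 and Ccl4 were found together in 4.36% of cells where the product of their shares gives 1.66%, a ratio of 2.62. The other neighbours, Cxcl1 and Cxcl2, had a ratio of 2.59 on 18 cells, and Cxcl1 and Ccl4 2.24 on 7 cells. Pairs across the families were lower for Cxcl2, at 1.84 with Ccl4 and 1.60 with Ccl3. Cxcl1 with Ccl3 had 1.55 on 4 cells. The Cxcl1 pairs in CD rest on the 22 cells in which that gene was found.

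In WD all ratios lay between 1.20 and 1.63, with Ccl3 and Ccl4 again the highest (15.5% of cells against 9.49%). In CD 81.8% and in WD 86.9% of cells with Cxcl1 also had Cxcl2. In HFD no pair had an expected count of at least 2 cells, and none was compared. Over the libraries, 3 of the 12 pairs compared reached a ratio of 2, all in CD, beside 2.08% of gene pairs in CD, 2.19% in HFD and 1.92% in WD. A pair cannot reach as large a ratio where its genes are found in more cells, as in WD.

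**Figure D5:**
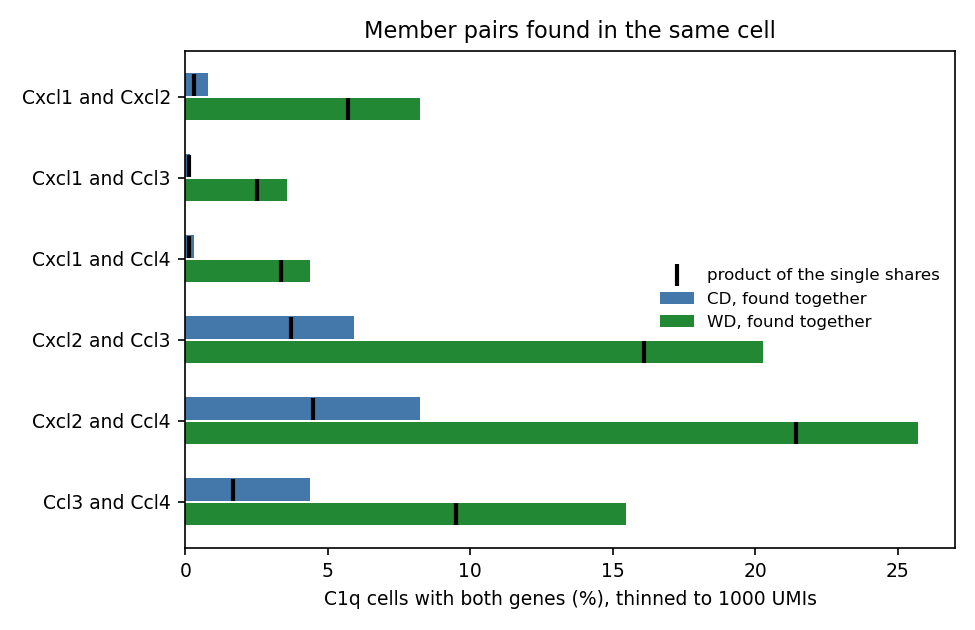
Share of C1q cells (%) in which both genes of a pair were found at 1000 UMIs per cell, in CD (blue) and WD (green); the black ticks give the product of the single shares. Bars start at 0, and all 12 bars exceed their tick, with the highest ratios for Ccl3 with Ccl4.

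Cells with more members also had more immediate early transcripts. In CD the 22 immediate early and dissociation genes summed to 8179 CPM in cells with no member, 13690 with 1 and 16476 with 2 or more. In HFD the sums were 5028, 10392 and 14454 CPM, and in WD 20747, 29580 and 33080. The order was the same in all 3 libraries. Neutrophil markers had the same order in CD, with 344, 1028 and 2435 CPM, and in WD, with 290, 1456 and 1705, but not in HFD, with 159, 822 and 404. The part of these lists in the members' levels was not tested. In CD, cells with none, 1 and at least 2 members had medians of 4175, 4567 and 4485 UMIs and of 3.62%, 3.63% and 3.62% mitochondrial UMIs. Depth was greater in cells with more members in HFD, with medians of 2924, 3116 and 3784 UMIs, and in WD, with 10803, 12186.5 and 13331. The mitochondrial medians were 4.37%, 4.22% and 4.35% in HFD and 4.29%, 4.35% and 4.59% in WD.

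Genes whose level per cell followed a member most closely were ranked by the mean of Pearson's r over the 3 libraries, among 8031 genes found in at least 2% of C1q cells of each. The cells of a library share its depth and handling, so these values only describe. For Cxcl2 they were Junb (0.42), Nfkbia (0.39), Socs3 (0.37), Zfp36 (0.36) and Egr1 (0.36). Junb and Egr1 are immediate early transcription factors, Nfkbia encodes the NF-kB inhibitor IkB-alpha, Socs3 restrains cytokine receptors and Zfp36 destabilises cytokine mRNA. For Ccl3 the list began with Ccl4 (0.35), Cxcl2 (0.26) and Junb (0.20), followed by Nfkbiz and Socs3. For Ccl4 it began with Ccl3 (0.35), Cxcl2 (0.28) and Il1b (0.21), which encodes interleukin 1-beta, followed by Nfkbiz and Atf3. For Cxcl1 the values were weak and no gene is singled out: Cxcl2 led at 0.21. Cxcl2 with Junb had r of 0.50 in CD, 0.25 in HFD and 0.51 in WD, and 0.37, 0.14 and 0.34 at 1000 UMIs per cell.

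Genes of the same pathway were read from lists, each described by how many genes with at least 50 UMIs passed the fold of 2. The lists, like the members, were chosen with earlier results known. Of 20 genes of NF-kB feedback and targets, 11 were at least 2-fold lower in HFD than in CD and 0 higher, with a median log2 ratio of -1.20 against -0.04 over all genes tested. Ptgs2, the inducible cyclooxygenase, went from 10.3 to 0.152 CPM (117 and 1 UMIs) and Ier3 from 300 to 60.3 CPM. Nfkbid went from 30.2 to 5.91 CPM and Ccrl2 from 46.4 to 9.25. All 4 cytokine genes with enough UMIs were at least 2-fold lower. Tnf, tumour necrosis factor, went from 39.3 to 5.91 CPM, Il1b from 170 to 75.0, Osm from 19.8 to 8.49 and Il1rn, the interleukin 1 receptor antagonist, from 15.4 to 4.85.

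The immediate early and dissociation list had 15 of 22 genes at least 2-fold lower in HFD and 0 higher (median -1.56). Dusp2, a phosphatase of MAP kinases, went from 16.3 to 0.455 CPM, Nr4a1 from 45.5 to 5.76 and Hspa1b, a heat shock protein, from 49.7 to 10.6. Egr3 went from 5.09 to 0.303 CPM. Of the sensors and signals upstream, 0 of the 11 genes tested passed the fold of 2 in either direction, with a median of 0.09. Tlr4, Tlr2, Rela and Irak4 were among them. Over all genes 2.71% were lower and 0.971% higher, so a count of 0 is near the background. Tlr4, the receptor for bacterial lipopolysaccharide, had 26.3 CPM in CD and 33.5 in HFD, and Tlr2 74.5 and 59.0.

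Other chemokines did not share the pattern as a family. Of the other CXC chemokines, 1 of 8 tested was at least 2-fold lower in HFD than in CD, Cxcl10, which attracts T cells (27.7 and 6.67 CPM). Of the other CC chemokines 2 of 10 were lower, Ccl2, the ligand of CCR2 (501 and 185 CPM), and Ccl17 (41.8 and 20.01 CPM), and 1 was higher, Ccl22, from 1.84 to 11.2 CPM. The medians were -0.30 in both lists. Over all genes 2.71% were that much lower in HFD and 0.971% that much higher. In WD against CD, 2 of 9 CXC genes were higher and 5 lower, beside 37.3% and 17.4% of all genes. Cxcl10 was 1 of the 2 higher, with 85.0 CPM in WD, and so had the order of the members. Cxcl3, some of whose reads could be shared with Cxcl2, had 23 UMIs in CD, 0 in HFD and 1036 in WD. Cxcl13 had 109, 68.4 and 3.73 CPM, Cxcl12 23.4, 26.8 and 2.26, and Ccl8 841, 675 and 81.1, so that these were lowest in the library where the members were highest.

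The lists for NF-kB targets, cytokines and immediate early genes stood high in WD beside a high background. Against CD, 18 of 20 NF-kB genes, 11 of 11 cytokines and 17 of 22 immediate early genes were at least 2-fold higher, and 0 were lower in any of the lists, beside the 37.3% of all genes given above. Tnfaip3, which encodes the NF-kB inhibitor A20, had 21.2 CPM in CD and 604 in WD, and Birc3 38.7 and 971. Il1a had 0.878 and 26.1 CPM. Il12b, Csf3 and Lif had no UMI in CD and 82, 62 and 90 UMIs in WD. Their levels in WD were at least 5.20-fold, 3.93-fold and 5.71-fold higher than that of 3 UMIs in CD. The cytokine median was a log2 ratio of 2.93, or 2.38 with these 3 genes at that bound. Of the upstream list 5 of 12 were higher, among them Rel (30.2 and 412 CPM), Nfkb1 (68.0 and 437) and Traf6 (5.44 and 44.1). That count is near the share of all genes, 37.3%.

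Receptors of the members, Cxcr2 and Ccr1, were found at higher levels in neutrophil-marked cells than in C1q cells of WD. Cxcr2, which binds Cxcl1 and Cxcl2, had 470 CPM (417 to 528) in the neutrophil-marked cells of WD and 13.8 in its C1q cells, but it is also 1 of the markers that defined those cells. Ccr1, a receptor of Ccl3, had 472 CPM in the same cells and 53.4 in C1q cells of WD, 47.7 in CD and 37.9 in HFD. In HFD against CD, Cxcr2 passed the fold of 2, on 7 and 51 UMIs, and Ccr1 did not.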

How the data were processed

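The authors deposited raw UMI counts for each barcode and gene, without normalization. Per the file headers, their counting software had version 3.0.1 (CD, HFD) or 7.2.0 (WD). Genome build GRCm38 and Seurat are named per the submitters' processing notes. The sources used here do not state cell filters, pooling of mice or whether reads in introns were counted. Counts were summed over the cells of a population and divided by their total over the 30406 genes shared by Ensembl ID.

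Intervals are 95% intervals for counting error only, exact Poisson for CPM, exact conditional binomial for ratios and Clopper-Pearson for shares of cells. With 1 library per diet no test was made, and a gene counted as different at a fold of 2 with at least 50 summed UMIs. Scripts used Python 3.11.15, numpy 2.4.6, scipy 1.17.1 and scanpy 1.11.5, and were tested on simulated data. Cells were thinned without replacement (seed 1). The sort excluded doublets per the labels' protocols, and none were removed here except in an alternative based on Scrublet scores. Positions came from GENCODE vM21.

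The members and lists were chosen with earlier results of these data known. Named from each list were at most the 4 genes with the largest absolute log2 ratio in a comparison, and for each member the 5 genes with the highest mean r. Of 11 other CXC chemokines, 1 was not matched and is not analysed here, and 1 gene of the receptor list is not reported here. The alternatives changed the UMI, mitochondrial and C1q thresholds, the count minimum, the scaling, the weight and depth of cells, the doublets and the richest cells. Chosen after seeing the data were the alternatives without marked C1q cells, with scaling by genes with under 2000 intron bases and without WD.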

Additional observations from a re-analysis of the deposited data

Results flagged for a closer look

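Barcodes over the mitochondrial limit, which enter no comparison, held the members too, above the level that 3 counts would give. In CD they had 20.3 CPM of Cxcl1, 920 of Cxcl2, 216 of Ccl3 and 343 of Ccl4. In HFD the levels were 8.23, 13.7, 5.49 and 16.5 CPM, and in WD 114, 2710, 439 and 1120 CPM. Each member thus had the order of the C1q cells in these barcodes, lowest in HFD and highest in WD. For Cxcl1 this rests on 8 UMIs in CD and 6 in HFD, with intervals that overlap.

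Cxcl2 was 2.18-fold higher in Ccr2 than in Lyve1 cells in CD, whereas in HFD and in WD it was lower in Ccr2 cells (ratios of 0.668 and 0.922). The difference between libraries was not tested, since each diet has 1 library.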

How the results depend on the processing

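All 4 members were at least 2-fold higher in WD than in HFD under every alternative run. All 4 were lower in HFD than in CD under every alternative but the thinning of cells to 1000 UMIs before summing, where 3 were and Cxcl1, with a log2 ratio of -3.85, was under the minimum of 50 UMIs. In WD against CD all 4 were higher under every alternative but a C1q threshold of 1%, where 3 were and Cxcl2 had a log2 ratio of 0.81 in place of 1.44. Of 166 single log2 ratios, 0 changed sign and 39 left the interval of the reported value. Without the 1% of cells richest in Cxcl2 its HFD to CD ratio went from -4.06 to -5.40 (log2). Over all genes, 268 were lower in HFD than in CD as reported, 134 with cells thinned, 421 with at least 20 summed UMIs, 117 with at least 200 and 2191 with no minimum. Of genes higher in WD, thinning left 2908 of 4818 against CD and 2872 of 4878 against HFD, and no minimum gave 10498 and 10775. The count of 1 for Ccr2 against Lyve1 cells was 0 without the richest 1% of cells and 2 when both genes were called after thinning, where Ccl4 in CD reached 2.36-fold. Scaling by genes with under 2000 intron bases moved the median gene of WD against CD by 0.35 (log2), and the median of ratios by -0.17, with all 4 members still past the fold of 2. Leaving out WD could not change the 3 pairs at a ratio of 2 or the 1 member in the split, since all came from CD. Removing the highest doublet scores took out 57, 59 and 182 cells. No paired analysis was possible because each diet has 1 library. No library could be left out within a diet, and Cxcl1 in HFD rests on 5 UMIs.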
